A study of Mus musculus with 80 samples.

Results

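Respiratory complex I, the NADH:ubiquinone oxidoreductase of the inner mitochondrial membrane, was followed through 50 of the 27179 genes counted. They were chosen by name: 43 nuclear genes whose symbol starts with Ndufa, Ndufb, Ndufc, Ndufs or Ndufv, assembly factors (Ndufaf) left aside, and the 7 subunits encoded by the mitochondrial chromosome, mt-Nd1 to mt-Nd6 with mt-Nd4l. The name rule also takes in Ndufa4 and its relative Ndufa4l2, which carry the family name but are not structural subunits of complex I, and 5 copies or pseudogenes (Ndufa11b, Ndufb4b, Ndufb4c, Ndufs5-ps and Ndufs6b). Of the 50 genes, 38 nuclear and 7 mitochondrial genes passed a filter on low values (CPM, the count scaled to the library total, of 5 or more in 8 or more libraries), as did 13016 genes in all.

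Complex I takes electrons from NADH, passes them along a chain of iron-sulfur clusters in its peripheral arm to ubiquinone, and couples this to proton pumping by its membrane arm. The core subunits do the chemistry: Ndufs1, Ndufv1 and Ndufv2 belong to the NADH side, Ndufs3, Ndufs7 and Ndufs8 to the quinone side, and the mitochondrially encoded subunits form the pump. The accessory subunits, all nuclear, stabilise the arms. The enzyme is thus built from the products of separate genomes, and in neurons it feeds the oxidative phosphorylation that pays for firing and synaptic transmission.

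The study asked whether a first reproductive experience leaves a lasting mark on the transcriptome of the female mouse brain. Age-matched C57BL/6 females (C57BL/6J in the study's methods) were either kept virgin or made primiparous: a male was housed with each 8 week old female for 2 weeks, and brains were taken, per the labels, 3 weeks after the pups were weaned, an interval that the study's methods give as longer. Neither state carried a transgene or a drug. Each of the 16 animals (8 virgin, 8 primiparous) gave the whole hypothalamus and the left-side cerebellum, hippocampus, neocortex and amygdala, and each library was poly(A)-selected RNA from 1 region of 1 animal. With 77 of 80 libraries analysed here, hypothalamus and neocortex had 8 virgin and 8 primiparous libraries, and cerebellum, hippocampus and amygdala had 7 virgin and 8 primiparous libraries.

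Libraries held from 7959192 to 37871854 counted reads, and genes of the mitochondrial chromosome took 2.96% to 8.62% of them. Marker sums set hypothalamus (Hcrt, Pmch, Oxt, Avp; 772 to 1410 CPM there and at most 70.4 elsewhere) and cerebellum (Gabra6, Pcp2, Cbln3, Car8; 4575 to 5230 CPM and at most 413 elsewhere) apart, and also amygdala by a narrow gap (52.2 to 95.4 against at most 51.5 CPM). The hippocampal list nearly separated its region (299 to 481 CPM against at most 302 in amygdala). No marker check is given for neocortex. Several libraries stood apart. In the neocortex of primiparous animal 427 the summed nuclear complex I level was 5429 CPM, ribosomal protein genes summed to 20210 CPM, and log2 level fell with transcript length at a slope of -0.38, while the hippocampus of primiparous animal 413 held 413 CPM of the cerebellar markers. Choroid plexus genes summed to 3942 CPM in the hippocampus of primiparous animal 425, 3547 CPM in that of virgin animal 4487 and 3607 CPM in the cerebellum of primiparous animal 421, where the medians of these regions were 98.7 and 90.4 CPM. Each comparison of virgin with primiparous animals was also computed without each library in turn, and those between regions without neocortex 427 and without hippocampus 413.

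The mitochondrial genes are printed here at the places where their reads meet. On the GRCm38 mitochondrial chromosome, mt-Nd4l and mt-Nd4 are neighbours on the plus strand whose reading frames share 7 bases, and mt-Nd5 and mt-Nd6 lie on opposite strands and share 14 bases at their ends. The sequences are from the GENCODE M21 transcripts, each 5′ to 3′ on its own strand, with the shared bases in capitals. The whole of mt-Nd4l is shown because it was the member with the largest difference between regions and one of the shortest.
mt-Nd4l, whole gene, chrM:9877-10173, plus strand: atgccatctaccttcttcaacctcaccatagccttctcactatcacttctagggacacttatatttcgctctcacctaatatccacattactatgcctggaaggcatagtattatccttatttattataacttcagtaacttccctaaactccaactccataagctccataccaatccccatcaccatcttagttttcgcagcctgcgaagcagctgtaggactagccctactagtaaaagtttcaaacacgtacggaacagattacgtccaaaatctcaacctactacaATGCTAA
mt-Nd4, first 30 bases, chrM:10167-10196, plus strand: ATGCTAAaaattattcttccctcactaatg
mt-Nd5, last 30 bases, chrM:13536-13565, plus strand: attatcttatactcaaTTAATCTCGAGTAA
mt-Nd6, last 30 bases, chrM:13552-13581, minus strand: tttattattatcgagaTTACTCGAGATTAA
The library kit does not mark strand, and whether the counting used strand is not given in the sources used here, so reads of the overlap of mt-Nd5 and mt-Nd6, and any antisense reads over either gene, cannot be told apart.

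Only uniquely mapping reads were counted, and parts of the mitochondrial chromosome have near-identical nuclear copies. Of all 100-base windows (the read length), 98.5% of those in mt-Nd4l, 97.6% in mt-Nd3 and 60.8% in mt-Nd4 also occurred in a transcript of a nuclear gene (Gm10222, Gm28438 and Gm28439 on chromosome 1). The share was 3.19% for mt-Nd2, whose copy Gm13339 lies on chromosome 2, and 0 of all windows for mt-Nd1, mt-Nd5 and mt-Nd6. Levels of mt-Nd3, mt-Nd4l and mt-Nd4 are uncertain for this reason, and the part of the shared sequence in their values was not tested. Among the 38 nuclear genes tested, Ndufb4 (33.4% of windows), Ndufs5 (27.0%), Ndufs3 (19.9%), Ndufa12 (17.7%) and Ndufab1 (9.50%) shared windows with another transcript, and the other 33 shared none with the transcripts searched.

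Promoters of 33 of the 38 nuclear genes were found in the RefSeq table of GRCm38.p6, as 35 windows of 300 bases, 250 before and 50 after each annotated start. The motif of nuclear respiratory factor 1 (NRF1, a regulator of nuclear genes for mitochondrial proteins) was searched on both strands. Its letters are the capitals in the Ndufa5 promoter printed here, with any base at the sixth place. Of the 35 windows, 8 held it: 22.9%, against 9.24% of the promoters of all genes tested and 4.60% of all promoters. Overlapping windows of Ndufa5 give 2 of these, and per gene the motif was found for 7 of 33 (21.2%), against 11.1% of the genes tested. A motif of the zinc finger factor YY1, the later run of capitals in the Ndufs6 promoter, was in 4 of 35 (11.4%; 1.87% of tested genes' promoters and 0.852% of all). CCGGAAGT, the ETS motif bound by GABPA, was in 1 of 35 (2.86%; 7.31% and 3.89%), that of Ndufs3, and TCAAGGTCA, a motif of the orphan receptor ERR alpha, was in none (0.256% and 0.423%). Both strands were searched in each case, and a match describes the letters only. A pair of these promoters is printed with the matches in capitals, because Ndufs6 held 2 of the motifs and was higher after parity in hypothalamus while Ndufa5, with 1 match, was lower there. Of the other members called there, Ndufb11, Ndufv3, Ndufb10, Ndufs8, Ndufv1 and Ndufa7 (higher) and Ndufv2 (lower) held no match. Ndufa6 (higher) held 1 NRF1 match. A link between motifs and direction was not tested.
Ndufs6 promoter, chr13:73328433-73328732, minus strand: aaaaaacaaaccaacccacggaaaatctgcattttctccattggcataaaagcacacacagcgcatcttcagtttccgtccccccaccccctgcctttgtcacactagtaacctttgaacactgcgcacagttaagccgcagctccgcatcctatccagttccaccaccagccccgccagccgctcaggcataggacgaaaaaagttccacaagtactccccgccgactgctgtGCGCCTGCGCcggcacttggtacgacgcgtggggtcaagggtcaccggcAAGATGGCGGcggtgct
Ndufa5 promoter, chr6:24527477-24527776, minus strand: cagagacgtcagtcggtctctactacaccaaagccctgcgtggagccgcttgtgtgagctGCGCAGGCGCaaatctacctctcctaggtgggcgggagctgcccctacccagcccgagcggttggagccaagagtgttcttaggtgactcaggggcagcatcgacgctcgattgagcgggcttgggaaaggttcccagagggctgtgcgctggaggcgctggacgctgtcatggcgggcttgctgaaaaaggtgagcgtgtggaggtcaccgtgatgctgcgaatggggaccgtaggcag
In Ndufs6 the capitals mark the NRF1 motif, matched on the strand opposite to the one printed, and then the YY1 motif. In Ndufa5 they mark the NRF1 motif.

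Levels between genes were compared per kilobase of transcript, as the mean over all 77 libraries. Apart from mt-Nd3 and mt-Nd4l, the mitochondrial genes stood far above every nuclear gene: mt-Nd1, which closes the membrane arm beside the quinone site, had 5921 CPM per kilobase, mt-Nd2 3612, mt-Nd5 2558, mt-Nd6 2503 and mt-Nd4 2328. By contrast mt-Nd3 had 128 and mt-Nd4l 60.6 CPM per kilobase, within the range of the nuclear genes. These genes lie in a run of 6 neighbours, from mt-Co2 to mt-Nd4l, that was low in every region, and 5 of these 6 shared at least 97.6% of their windows with a nuclear transcript, the exception being mt-Atp8, which shared none. Among the nuclear genes, Ndufa4 (312 CPM per kilobase), Ndufb9 (199) and Ndufb8 (173), the latter both accessory subunits of the membrane arm, were highest. Lowest were Ndufa8 (14.3), the copy Ndufs6b (13.2), and Ndufab1 (13.4), the mitochondrial acyl carrier protein, whose value rests on an annotated transcript of 3479 bases. Of the nuclear core subunits, Ndufs1 had 51.6, Ndufv1 104 and Ndufs7 124 CPM per kilobase, within the range of the accessory subunits.

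**Figure D1:**
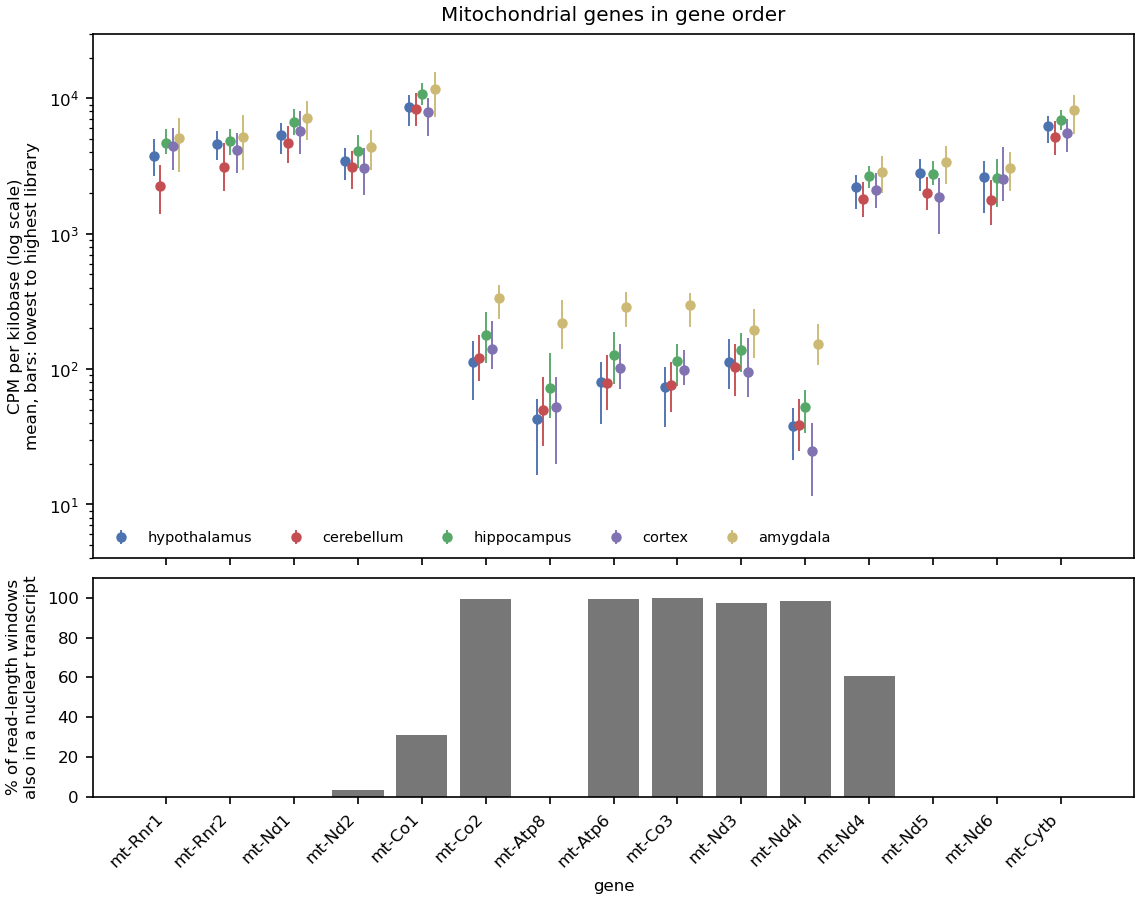
Genes of the mitochondrial chromosome in gene order, as mean CPM per kilobase in each region on a log axis with bars from the lowest to the highest library (upper panel), and the percentage of their 100-base windows also found in a nuclear transcript (lower panel). The run from mt-Co2 to mt-Nd4l lies below the other genes in every region, and the amygdala points are the highest within that run.

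The remaining 5 genes did not pass the filter. Ndufa4l2, a hypoxia-responsive relative of Ndufa4, reached at most 4.74 CPM in any library. Ndufs5-ps reached at most 2.77, Ndufb4b 1.81, Ndufb4c 0.524 and Ndufa11b 0.341 CPM.

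In hypothalamus, most mitochondrial members were lower in primiparous than in virgin animals, and most nuclear members were not called. Of the 7 mitochondrial genes, 6 were called lower in primiparous animals, and 11.8% of all genes tested were called lower there. Of the 38 nuclear genes 9 were higher and 2 lower, against 10.8% of all genes called higher. Here and below a call is a Benjamini-Hochberg adjusted p under 0.05, over 13016 genes, in the quasi-likelihood F-test of edgeR. The median log2 fold change, primiparous over virgin, was -0.46 over the mitochondrial genes, 0.06 over the nuclear genes and 0.01 over all genes tested. Leaving out 1 library at a time, the nuclear median was 0.04 (without primiparous animal 421) to 0.10 (without virgin animal 409) and the mitochondrial one -0.53 to -0.44.

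The summed mitochondrial level was 17089.9 to 22835 CPM (median 21614) in virgin hypothalamus and 13527 to 17789 CPM (median 15272) in primiparous hypothalamus. Only the virgin animal 409 lay inside the primiparous range, and the other 7 virgin libraries lay above all 8 primiparous ones. In bulk tissue, fewer cells of a type and less RNA per cell cannot be told apart. The summed nuclear level was 2713 to 3112 CPM (median 2759) in virgin and 2695 to 3285 CPM (median 2967) in primiparous animals, with overlapping groups.

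**Figure D2:**
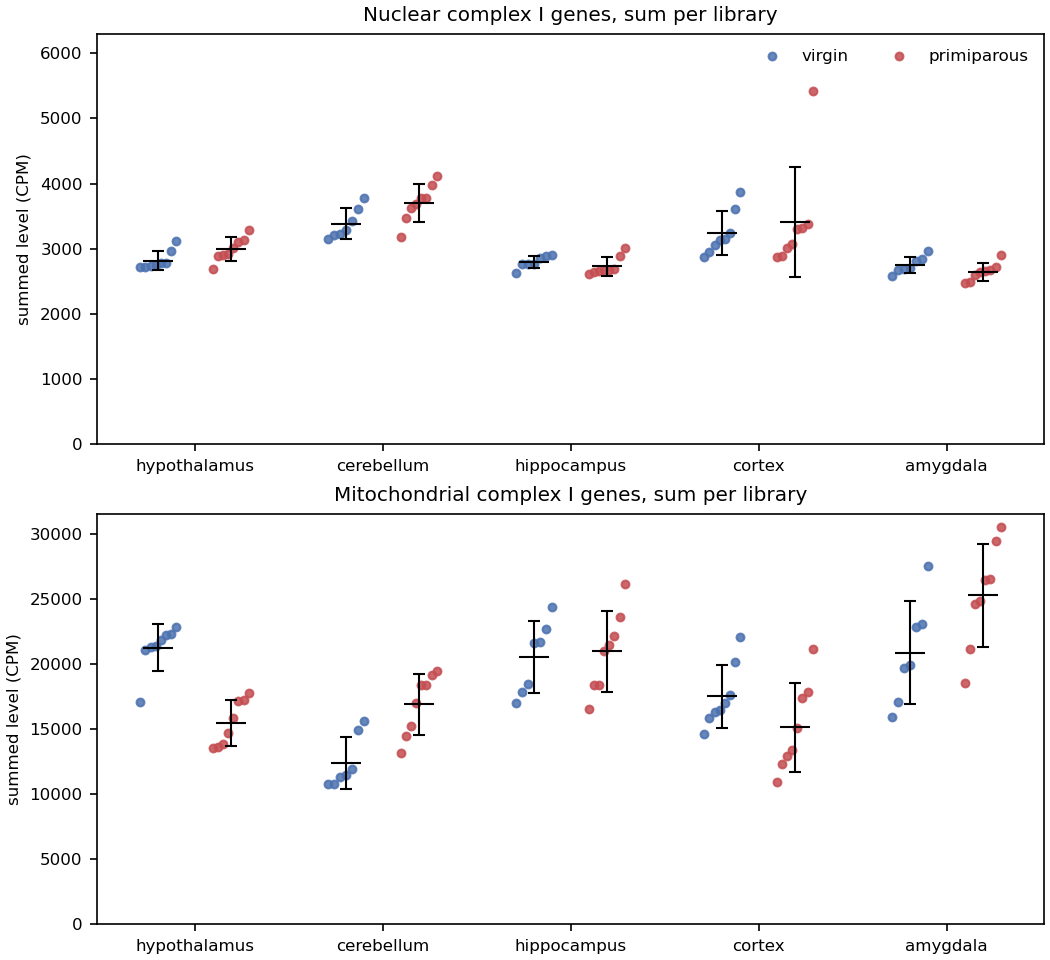
Summed level in CPM of the nuclear (upper panel) and the mitochondrial (lower panel) complex I genes in each library, by region and state, with the mean and SD of each group as bars. In hypothalamus the mitochondrial sum averages 21252 CPM in virgin and 15469.8 CPM in primiparous animals, in cerebellum 12401 and 16886.5 CPM, and 1 primiparous neocortex library stands at 5429 CPM in the upper panel.

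The mitochondrially encoded subunits were followed along the membrane arm. mt-Nd4, an antiporter-like proton-pumping subunit, had 3278 to 3765 CPM (median 3689) in virgin and 2115 to 2888 CPM (median 2463) in primiparous hypothalamus. The groups did not overlap, and its log2 fold change was -0.55 ± 0.06 (SE, n = 8 and 8; adjusted p = 5.34e-06). mt-Nd1 had 5157 to 6314 CPM (median 5881) in virgin and 3726 to 5139 CPM (median 4256) in primiparous animals. It too did not overlap, at a log2 fold change of -0.46 ± 0.06 (adjusted p = 0.000322), and these were the members without overlap, where 0.292% of all genes tested were lower without overlap.

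The other antiporter-like subunits were lower with 1 virgin library inside the primiparous range. mt-Nd5 had 4868 to 6491 CPM (median 5996) in virgin and 3740.3 to 4979 CPM (median 4410) in primiparous animals, a log2 fold change of -0.46 ± 0.06 (adjusted p = 0.000322). mt-Nd2 had 2990.5 to 4483 CPM (median 4314) and 2571 to 3506 CPM (median 2968), a log2 fold change of -0.49 ± 0.08 (adjusted p = 0.00116). In both genes the low virgin library was that of animal 409.

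The small subunits at the hinge of the arm had far fewer counted reads. mt-Nd3 had 41.3 to 57.6 CPM (median 48.6) in virgin and 25.0 to 44.4 CPM (median 27.7) in primiparous animals, a log2 fold change of -0.65 ± 0.11 (adjusted p = 0.000892), the largest of the 7. mt-Nd4l had 11.1 to 15.4 CPM (median 12.4) and 6.36 to 13.4 CPM (median 9.90), a log2 fold change of -0.38 ± 0.14 (adjusted p = 0.0448). mt-Nd6, the subunit read from the other strand, had 739 to 1788 CPM (median 1681) in virgin and 964 to 1397 CPM (median 1160.4) in primiparous animals, and its log2 fold change of -0.43 ± 0.15 missed the threshold (adjusted p = 0.0511). Its lowest virgin library, animal 409 again, lay below every primiparous library.

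**Figure D3:**
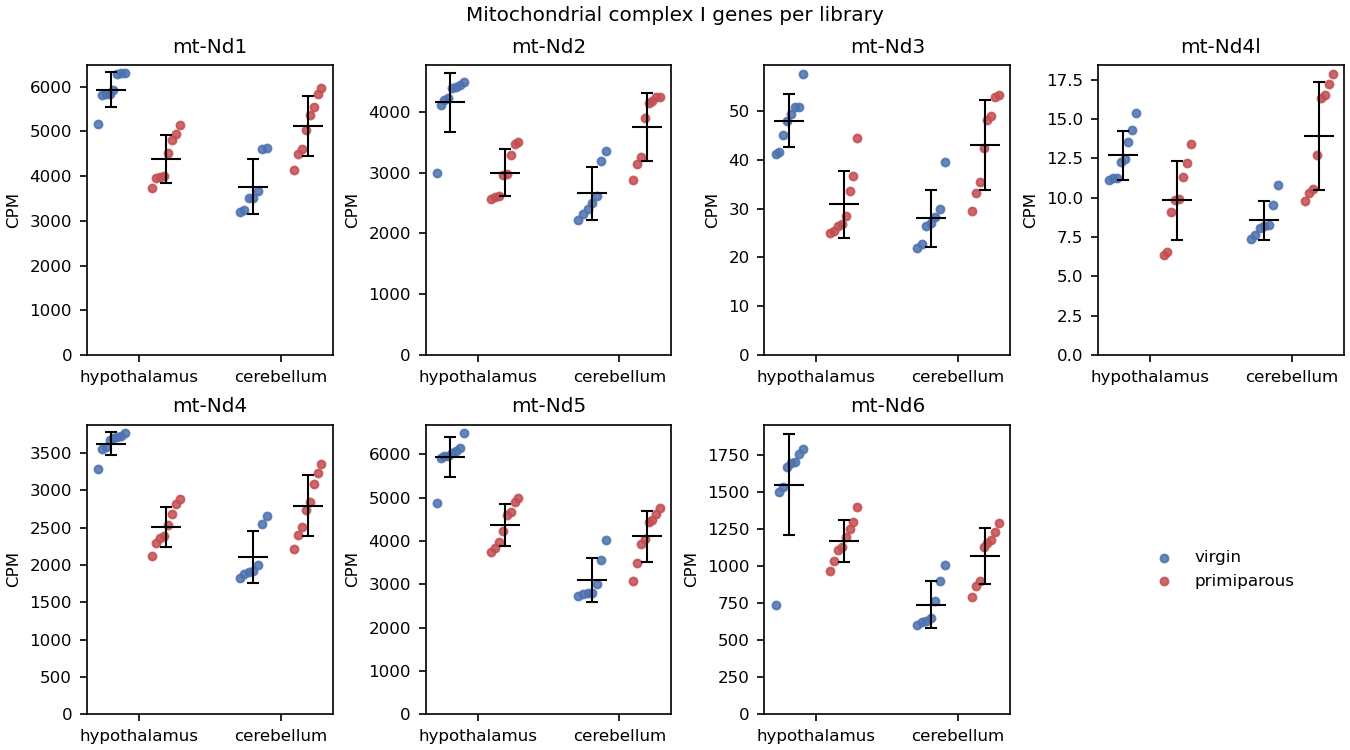
CPM of each mitochondrial complex I gene per library in hypothalamus and cerebellum, virgin and primiparous, with the mean and SD of each group. In hypothalamus the primiparous means lie lower in every panel, with groups that do not overlap for mt-Nd1 and mt-Nd4 and with mt-Nd6 not called, and in cerebellum the primiparous means lie higher with overlap.

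Of the accessory subunits of the peripheral arm, 5 of 9 were called higher in primiparous hypothalamus and 1 lower, against 10.8% and 11.8% of all genes. Whether the parts of the complex differed was not tested. Ndufv3, at the NADH end, had 49.2 to 62.8 CPM (median 54.4) in virgin and 60.1 to 73.2 CPM (median 65.1) in primiparous animals, a log2 fold change of 0.24 ± 0.06 (adjusted p = 0.00528). Ndufs6, a zinc-binding subunit, had 32.0 to 47.3 CPM (median 34.2) and 41.3 to 50.8 CPM (median 44.8), a log2 fold change of 0.29 ± 0.08 (adjusted p = 0.0120). All 8 primiparous libraries exceeded the virgin mean for both genes, and the groups overlapped. Ndufa6 (0.33 ± 0.11, adjusted p = 0.0292), Ndufa2 (0.28 ± 0.10, adjusted p = 0.0357) and Ndufa7 (0.19 ± 0.07, adjusted p = 0.0444) were the others called higher, in log2 fold change.

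In the membrane arm 2 of 19 accessory subunits were called higher and none lower, a share near the 10.8% of all genes called higher. Ndufb11, an X-linked subunit, had 75.7 to 92.8 CPM (median 79.9) in virgin and 89.8 to 106 CPM (median 99.98) in primiparous hypothalamus, a log2 fold change of 0.26 ± 0.05 (adjusted p = 0.00227), the smallest p of the nuclear members. Ndufb10 had 87.0 to 131 CPM (median 99.7) and 106 to 148 CPM (median 125), a log2 fold change of 0.24 ± 0.07 (adjusted p = 0.0249). In both genes every primiparous library was above the virgin mean, and the groups overlapped.

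The members called lower were an accessory and a core subunit. Ndufa5, of the peripheral arm, had 57.3 to 67.3 CPM (median 62.1) in virgin and 45.2 to 61.6 CPM (median 56.2) in primiparous animals, a log2 fold change of -0.18 ± 0.06 (adjusted p = 0.0265). Ndufv2, which holds an iron-sulfur cluster on the NADH side, had 136 to 163 CPM (median 152) and 114 to 152 CPM (median 138), a log2 fold change of -0.17 ± 0.05 (adjusted p = 0.0276). For both genes all 8 primiparous libraries lay below the virgin mean, with overlap, and the log2 fold change of Ndufv2 became 0.040 when transcript length and GC content were corrected for.

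The nuclear core subunits did not move together. Ndufv1, the NADH-binding flavoprotein, had 142 to 176 CPM (median 146) in virgin and 150.3 to 189 CPM (median 173) in primiparous animals, a log2 fold change of 0.16 ± 0.05 (adjusted p = 0.0381). Ndufs8, an iron-sulfur subunit of the quinone side, was also called higher, at 0.21 ± 0.07 (adjusted p = 0.0368). Ndufs7 (0.21 ± 0.09, adjusted p = 0.0904) and Ndufs3 (0.06 ± 0.06, adjusted p = 0.474), also of the quinone side, were not called. Nor was Ndufs1, the largest subunit, at -0.11 ± 0.05 (adjusted p = 0.109). Outside the structural subunits, Ndufa4 had -0.02 ± 0.04 (adjusted p = 0.741) and the copy Ndufs6b 0.17 ± 0.17 (adjusted p = 0.468), and Ndufab1, which sits in both arms, had -0.05 ± 0.06 (adjusted p = 0.592).

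**Figure D4:**
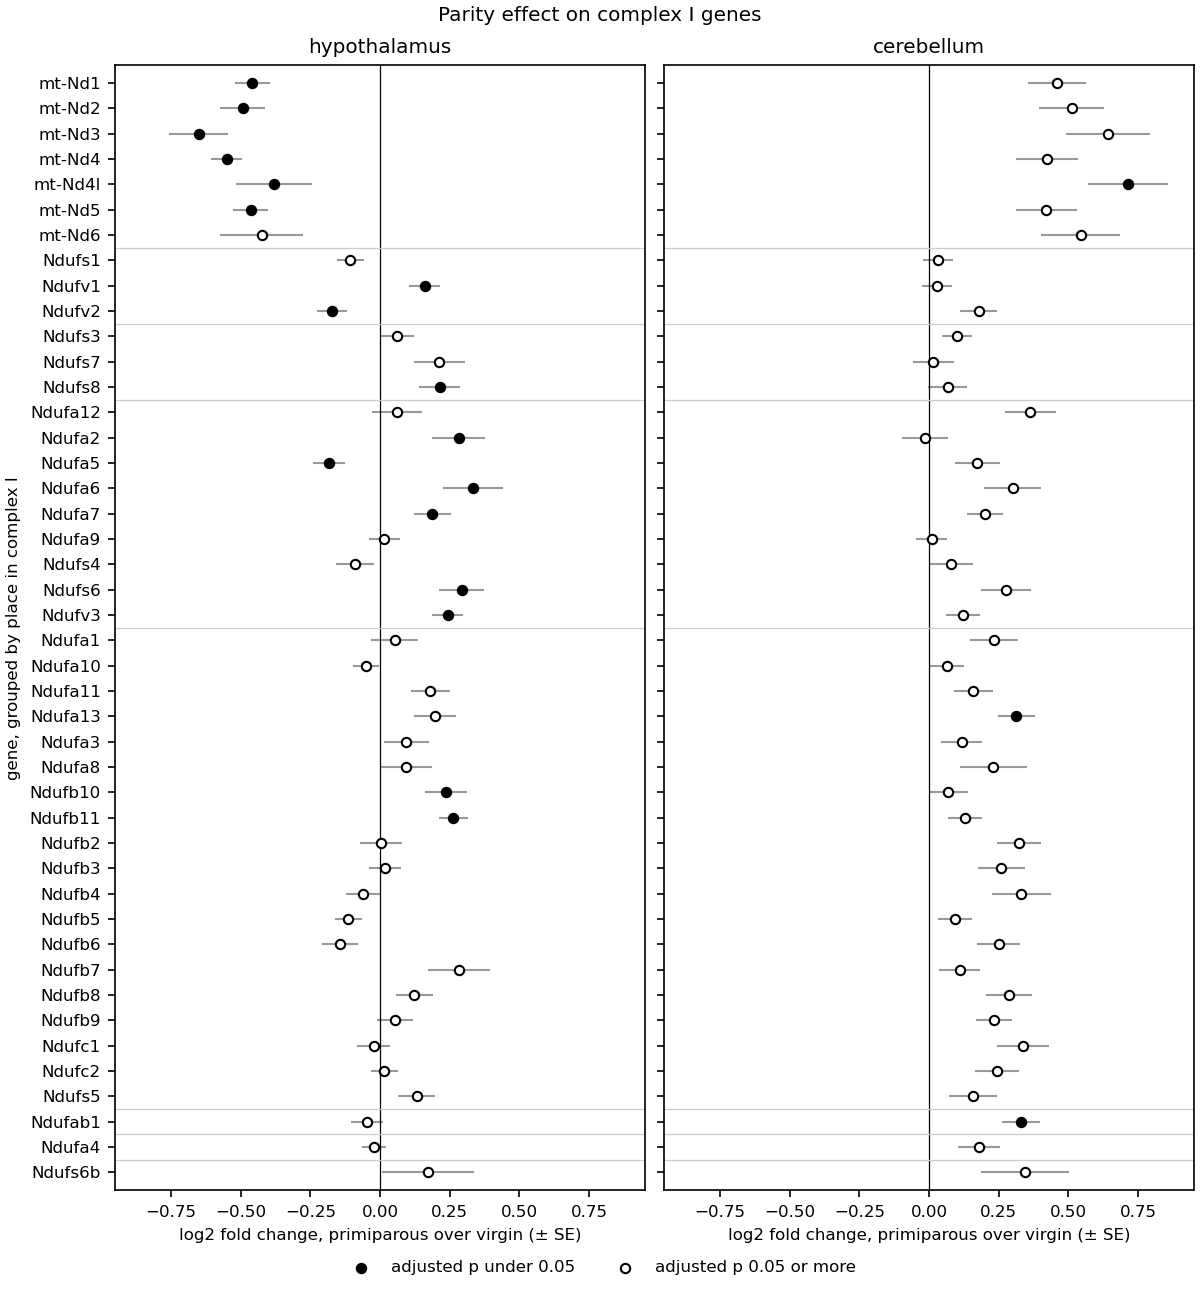
Log2 fold change (primiparous over virgin) with its SE for the complex I genes shown, in hypothalamus (left) and cerebellum (right), ordered by place in the complex, with filled points at an adjusted p under 0.05. The 7 mitochondrial genes lie between -0.65 and -0.38 in hypothalamus and between 0.42 and 0.71 in cerebellum.

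Other gene groups were counted in the same hypothalamic comparison, where 10.8% of all genes tested were called higher and 11.8% lower. The 8 other genes of the mitochondrial chromosome had 7 lower and a median log2 fold change of -0.48, and mt-Co1, a core subunit of complex IV, fell by 0.51 (adjusted p = 9.05e-06). Nuclear subunits of complexes II to V had 10 of 36 higher and 4 lower (median 0.08), among the latter Atp5c1 of the ATP synthase stalk at -0.21 (adjusted p = 0.00277). Of 14 complex I assembly factors only Ndufaf4 was called, at -0.34 (adjusted p = 0.00502). Of 11 regulators 2 were called lower, Ppargc1a, the coactivator PGC-1 alpha (-0.24, adjusted p = 0.0255), and Yy1. Cytosolic ribosomal protein genes, which are short mRNAs like those of the nuclear members, had 32 of 77 higher and 0 lower, with a median of 0.17.

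The hypothalamic calls moved with a correction for transcript length and GC content and with the animal numbers. The slope of log2 level on transcript length averaged 0.036 ± 0.020 (SD) in virgin and -0.00057 ± 0.036 in primiparous hypothalamus. Its part in the calls was not tested. The 9 nuclear members called higher had a median length of 732 bases and GC content of 55.5%, the 2 called lower 1286 bases and 46.1%, the 27 other nuclear members 758 bases and 52.1%, and all genes tested 3156 bases and 50.6%. With a correction for length and GC content, 1 nuclear member was higher, 1 lower and 1 mitochondrial member lower, and the medians were -0.15 for mitochondrial and -0.0051 for nuclear members. Animals with 3-digit numbers were 2 virgin and 7 primiparous, and those with 4-digit numbers 6 and 1, so number series and state were partly overlapping. With the number series as a covariate, 0 nuclear members and 1 mitochondrial member were called, and the medians were -0.34 for mitochondrial and 0.03 for nuclear members. Leaving out 1 library at a time gave 3 to 15 nuclear members higher, 0 to 3 lower and 5 to 7 mitochondrial members lower, with 15 higher without primiparous animal 418 and 3 without primiparous animal 421 or virgin animal 4488 or 4490.

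Marker genes of other cells were counted in hypothalamus, where 10.8% of all genes tested were called higher and 11.8% lower. Oligodendrocytes had 1 of 6 higher and 1 lower, astrocytes 2 of 6 lower and microglia 0 of 6. Endothelium had 1 of 6 higher, and neurons 1 higher and 3 lower of 6. Blood genes had 1 of 2 higher, with summed levels of 17.0 to 33.0 CPM in virgin and 18.5 to 60.2 CPM in primiparous animals, and choroid plexus genes had 1 of 4 higher. Their part in the complex I values was not tested.

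In cerebellum every mitochondrial member and nearly every nuclear member had a higher level in primiparous animals, but few passed the test. Of 38 nuclear genes 37 had a positive log2 fold change and 2 were called higher, and of the 7 mitochondrial genes all were positive and 1 was called higher, where 0.599% of all genes tested were called higher. None was called lower, where 0.108% of all genes were. At an unadjusted p under 0.05 there were 21 nuclear and 7 mitochondrial members, among 2538 of all 13016 genes tested. The medians were 0.18 for nuclear members, 0.51 for mitochondrial members and 0.01 for all genes tested.

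The summed mitochondrial level was 10747 to 15615 CPM (median 11455) in virgin and 13143 to 19434 CPM (median 17662.5) in primiparous cerebellum, and the groups overlapped. mt-Nd4l was the mitochondrial member called, with 7.35 to 10.8 CPM (median 8.23) in virgin and 9.82 to 17.9 CPM (median 14.5) in primiparous animals, a log2 fold change of 0.71 ± 0.14 (SE, n = 7 and 8; adjusted p = 0.0241). The 6 others had adjusted p from 0.0536 to 0.0737. Among them mt-Nd1 had 3188 to 4636 CPM (median 3519.8) in virgin and 4134 to 5963 CPM (median 5197) in primiparous animals, a log2 fold change of 0.46 ± 0.10 (adjusted p = 0.0536), and mt-Nd3 had 0.64 ± 0.15 (adjusted p = 0.0556). All 8 primiparous libraries lay above the virgin mean for 6 of the 7 genes, and 7 of 8 for mt-Nd5.

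The nuclear members called in cerebellum were Ndufab1 and Ndufa13. Ndufab1 had 38.3 to 52.7 CPM (median 42.1) in virgin and 50.6 to 60.5 CPM (median 55.2) in primiparous animals, a log2 fold change of 0.33 ± 0.07 (adjusted p = 0.0245). Ndufa13, an accessory subunit of the membrane arm also known as GRIM-19, had 103 to 147 CPM (median 127) and 135 to 172 CPM (median 159), a log2 fold change of 0.31 ± 0.07 (adjusted p = 0.0296). In both, the groups overlapped and all 8 primiparous libraries lay above the virgin mean. The nuclear core subunits lay between 0.01 (Ndufs7) and 0.18 (Ndufv2) and none was called, and Ndufa4 had 0.18 ± 0.08 (adjusted p = 0.202).

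These cerebellar counts turned on single libraries. Leaving out 1 library at a time gave 0 to 14 nuclear and 0 to 7 mitochondrial members called higher, with 14 nuclear members without primiparous animal 4493 and all 7 mitochondrial members without primiparous animal 418 or 4493. The medians moved less, from 0.13 to 0.21 for nuclear and from 0.47 to 0.57 for mitochondrial members. With the number series as a covariate no member was called, and the medians were 0.12 for nuclear and 0.37 for mitochondrial members. With a correction for length and GC content 4 nuclear members and all 7 mitochondrial members were called higher, and the medians were 0.07 and 0.35. The slope of log2 level on transcript length was -0.04 to 0.07 in virgin and -0.05 to 0.05 in primiparous cerebellum, and its part in these values was not tested.

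Of the other groups in cerebellum, none of the 8 other mitochondrial genes was called (8 at an unadjusted p under 0.05, median 0.51), and complexes II to V had 1 of 36 higher, Cox7c (0.45, adjusted p = 0.0214), with 35 positive. Ribosomal protein genes had 1 of 77 higher, Rpl13a (0.50, adjusted p = 0.00734), with 74 positive and a median of 0.17. No assembly factor and no regulator was called, the regulator with the smallest p being Esrra, which encodes ERR alpha (0.24, adjusted p = 0.108). Among the marker lists, oligodendrocyte genes summed to 4457 to 5919.9 CPM in virgin and 5357 to 7513 CPM in primiparous cerebellum (1 of 6 called, 6 positive). Microglia had 1 of 6 and astrocytes 1 of 6 higher. Neuron genes had 0 of 6 called, with sums of 5006 to 5674 CPM in virgin and 4765 to 5703 CPM in primiparous cerebellum. Blood genes summed to 24.3 to 35.9 and 26.1 to 96.9 CPM, and choroid plexus genes to 35.1 to 1301 and 45.7 to 3607 CPM. Over all genes tested, 0.599% were called higher in cerebellum and 0.108% lower. The part of the marker genes in the result was not tested.

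The difference between the parity effects of cerebellum and hypothalamus was tested directly, in a fit of the 4 groups. All 7 mitochondrial members had a higher effect in cerebellum at an adjusted p under 0.05, by 0.89 to 1.30 on the log2 scale (median 0.98), where 9.54% of all genes tested did. The difference was 0.98 ± 0.12 for mt-Nd4 (adjusted p = 2.65e-05), 0.93 ± 0.12 for mt-Nd1 (adjusted p = 7.68e-05) and 1.30 ± 0.19 for mt-Nd3 (adjusted p = 0.000183). With the animal as a block, all 7 were still called, at adjusted p from 0.00176 to 0.0321. With a correction for length and GC content the median difference was 0.49 and 6 of the 7 were called, and with the block and the correction together it was 0.50, also with 6 called. This difference was not computed with the number series as a covariate or with any library left out.

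Of the nuclear members 8 differed, all with the higher effect in cerebellum and none with the lower (5.94% of all genes), and the median difference was 0.14. They were Ndufb6 (0.40 ± 0.10), Ndufb4 (0.40 ± 0.12), Ndufab1 (0.38 ± 0.09), Ndufc1 (0.37 ± 0.11), Ndufa5 (0.36 ± 0.10), Ndufv2 (0.36 ± 0.09), Ndufb2 (0.33 ± 0.11) and Ndufb5 (0.21 ± 0.08). Ndufa5 and Ndufv2, the members called lower in hypothalamus, were among them. With the animal as a block 6 of the 8 were called, without Ndufb2 and Ndufb5. With the length and GC correction 7 nuclear members were called and the median difference was 0.08. In sign, 26 of 38 nuclear members were positive in both regions and 12 were opposite, while all 7 mitochondrial members were opposite.

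In hippocampus, neocortex and amygdala edgeR called no gene at all between virgin and primiparous animals (0 of 13016 in each, 0%). No complex I member was called there by limma-voom, DESeq2 or any other setting run. At an unadjusted p under 0.05, edgeR gave 1 nuclear and 0 mitochondrial members in hippocampus (961 genes in all), 2 and 1 in neocortex (1276) and 6 and 4 in amygdala (1544). In hippocampus the medians were -0.04 for nuclear and 0.02 for mitochondrial members. Leaving out 1 library at a time gave -0.06 (without primiparous animal 413) to -0.02 (without virgin animal 409) for nuclear members and, with a change of sign, -0.02 (without virgin animal 4489) to 0.09 (without virgin animal 4487) for mitochondrial members, and with the length and GC correction they were -0.0041 and -0.03. With the number series as a covariate the hippocampal medians were -0.05 for nuclear and -0.08 for mitochondrial members. Ndufb9 had the smallest p, at -0.14 ± 0.04 (adjusted p = 0.564). Its levels were 144 to 155 CPM (median 152) in virgin and 130 to 152 CPM (median 132) in primiparous hippocampus. Ndufb2 followed at -0.12 ± 0.06 (adjusted p = 0.728).

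In neocortex the medians were 0.11 for nuclear and -0.19 for mitochondrial members, and the nuclear median was -0.02 without primiparous animal 427. Without 1 library at a time the mitochondrial median was -0.29 (without primiparous animal 413) to -0.13 (without primiparous animal 421). With the length and GC correction the medians were 0.0091 for nuclear and -0.03 for mitochondrial members, and with the number series as a covariate 0.13 and -0.36. Ndufs7, the subunit that holds the last iron-sulfur cluster before quinone, had 79.4 to 117 CPM (median 90.9) in virgin and 69.6 to 175 CPM (median 108) in primiparous neocortex, a log2 fold change of 0.30 ± 0.13 (adjusted p = 0.488). mt-Nd3 had 28.1 to 58.7 CPM (median 35.1) and 21.8 to 41.3 CPM (median 27.1), a log2 fold change of -0.35 ± 0.15 (adjusted p = 0.489). Both genes overlapped widely between the groups.

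In amygdala the medians were -0.06 for nuclear and 0.26 for mitochondrial members, with the length and GC correction -0.04 and 0.14, and with the number series as a covariate -0.10 and 0.31. Ndufa12 had 16.3 to 24.1 CPM (median 18.8) in virgin and 12.6 to 20.1 CPM (median 14.8) in primiparous amygdala, a log2 fold change of -0.36 ± 0.11 (adjusted p = 0.223). Ndufs7 had -0.23 ± 0.08 (adjusted p = 0.257), opposite in sign to its neocortical value. The 7 mitochondrial members had log2 fold changes from 0.17 to 0.31 and were not called, the largest being mt-Nd5 at 0.31 ± 0.11 (adjusted p = 0.278).

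The cerebellar parity effect was also set against those of these regions. Minus the amygdala effect, 3 nuclear members were higher and 0 lower, where 0.361% and 0.0538% of all genes were: Ndufa12 (0.73 ± 0.14, adjusted p = 0.0187), Ndufb2 (0.46 ± 0.11, adjusted p = 0.0475) and Ndufa13 (0.45 ± 0.11, adjusted p = 0.0487), and with the animal as a block Ndufa12 alone was called. Minus the hippocampal effect, Ndufb9 was higher (0.37 ± 0.08, adjusted p = 0.0381), and no member lower, where 0.131% and 0.0384% of all genes were, and the block added Ndufa13. Minus the neocortical effect no member was called by edgeR, where 0.00768% of all genes were, with 2 nuclear and 7 mitochondrial members at an unadjusted p under 0.05 and 0 by limma-voom. No mitochondrial member was called against amygdala or hippocampus (1 and 7 at an unadjusted p under 0.05).

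Across regions, with virgin and primiparous animals pooled, the nuclear and the mitochondrial members ranked in different orders. The summed nuclear level, in plain CPM, was highest in cerebellum, at 3552 ± 303 CPM (SD, n = 15). Neocortex (3326 ± 624, n = 16), hypothalamus (2904 ± 182, n = 16), hippocampus (2760 ± 124, n = 15) and amygdala (2693 ± 139.8, n = 15) followed in that order. The summed mitochondrial level was highest in amygdala, at 23203 ± 4452 CPM, then hippocampus (20754 ± 2858), hypothalamus (18361 ± 3444), neocortex (16316 ± 3123) and cerebellum (14793 ± 3143). In plain CPM the nuclear order of means was the same within either state, but the mitochondrial one was not. On TMM-scaled library sizes, with all libraries, neocortex had the highest nuclear mean, at 3292 CPM against 3210 in cerebellum (virgin) and 3552 against 3541 (primiparous). Virgin hypothalamus (2695) was then lowest, below amygdala (2870) and hippocampus (2930). Primiparous hypothalamus (2824) lay between amygdala (2776) and hippocampus (2870). In plain CPM, virgin hypothalamus had the highest mitochondrial mean (21252 CPM), then amygdala (20853), hippocampus (20515), neocortex (17502) and cerebellum (12401). In primiparous animals amygdala (25259) was followed by hippocampus (20962), cerebellum (16886.5), hypothalamus (15469.8) and neocortex (15130). On TMM-scaled library sizes virgin hypothalamus (20330.5 CPM) came after amygdala (21786) and hippocampus (21508). Primiparous hypothalamus (14600) then came last, after neocortex (15760). With all libraries, each pair of neighbours in either order differed by less than the larger of their SDs. Without primiparous animal 427, left out after seeing the data, the nuclear sum in neocortex was 3186 ± 284 CPM (n = 15), and cerebellum lay above it by more than either SD. Libraries of each region were pooled for sequencing by region, so region and sequencing pool cannot be told apart.

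Each region was then tested against the mean of the other 4 in a fit of all 10 groups, where 32.4% to 42.3% of all genes were called in each direction. In cerebellum 22 of 38 nuclear members were higher and 2 lower (42.3% and 40.2% of all genes), with a median log2 difference of 0.17, while all 7 mitochondrial members were lower, with a median of -0.52. Among the largest were the quinone-side core subunit Ndufs7, at 128 ± 14.1 CPM (SD, n = 15) against 85.7 ± 18.6 CPM elsewhere (n = 62; log2 difference 0.50 ± 0.05 SE, adjusted p = 1.29e-13), and Ndufa4 (0.42 ± 0.04, adjusted p = 5.75e-14). The lowest was mt-Nd6, at 914 ± 238 CPM against 1393 ± 341 CPM (-0.73 ± 0.10, adjusted p = 3.44e-10), followed by mt-Nd4l (-0.60 ± 0.10, adjusted p = 2.44e-07) and mt-Nd4 (-0.56 ± 0.06, adjusted p = 6.90e-13). The nuclear members lower in cerebellum were Ndufb9 and Ndufa8.

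In neocortex 30 of 38 nuclear members were higher and 0 lower (37.7% and 36.2% of all genes), with a median of 0.20, and 4 of 7 mitochondrial members were lower, with a median of -0.23. The largest were Ndufs6b (0.49 ± 0.09, adjusted p = 5.70e-07), Ndufb9, at 174 ± 31.7 CPM against 131 ± 20.6 CPM elsewhere (0.46 ± 0.04, adjusted p = 4.12e-17), and Ndufs6 (0.40 ± 0.05, adjusted p = 3.28e-10). mt-Nd4l was lowest, at 7.32 ± 2.48 CPM against 20.8 ± 15.3 CPM (-1.19 ± 0.10, adjusted p = 4.99e-17), then mt-Nd5 (-0.48 ± 0.07, adjusted p = 1.05e-08) and mt-Nd3 (-0.42 ± 0.09, adjusted p = 1.48e-05). Without the neocortex library of animal 427, 24 nuclear members were higher and 1 lower, and with a length and GC correction 17 were higher and 7 lower.

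With both states pooled, most members were lower in hypothalamus: 25 of 38 nuclear members were lower and 3 higher (39.1% and 38.5% of all genes; median -0.16), and 5 of 7 mitochondrial members were lower (median -0.18). In plain CPM the mitochondrial part did not hold for virgin animals. Their summed mitochondrial level in hypothalamus (21252 CPM) was the highest of the 5 virgin regions, while that of primiparous animals (15469.8 CPM) was below all but neocortex. On TMM-scaled library sizes virgin hypothalamus (20330.5 CPM) lay below amygdala (21786) and hippocampus (21508) and above neocortex (17792) and cerebellum (11776.5). Primiparous hypothalamus (14600 CPM) was then the lowest region, with neocortex at 15760 CPM. Ndufb9 had 105 ± 10.4 CPM against 149 ± 25.0 CPM elsewhere (-0.59 ± 0.04, adjusted p = 5.29e-21), mt-Nd4l -0.56 ± 0.10 (adjusted p = 8.93e-07) and Ndufa4 -0.54 ± 0.05 (adjusted p = 1.14e-17). The members higher there were Ndufa6, at 19.0 ± 3.98 CPM against 14.1 ± 3.66 CPM (0.34 ± 0.07, adjusted p = 1.30e-05), Ndufab1 (0.17 ± 0.04, adjusted p = 0.000260) and Ndufb5 (0.11 ± 0.04, adjusted p = 0.0170). Ndufb9 was thus higher in neocortex and lower in hypothalamus than elsewhere.

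In hippocampus 2 nuclear members were higher and 20 lower (32.4% and 34.1% of all genes; median -0.12), and 5 of 7 mitochondrial members were higher (median 0.30). mt-Nd4 had 3685 ± 434 CPM against 3092 ± 798 CPM elsewhere (0.37 ± 0.06, adjusted p = 8.37e-08), with mt-Nd2 at 0.34 ± 0.07 (adjusted p = 3.00e-05) and mt-Nd1 at 0.33 ± 0.06 (adjusted p = 1.30e-06). The lowest were Ndufa6 (-0.35 ± 0.07, adjusted p = 3.31e-05), Ndufa2 (-0.31 ± 0.06, adjusted p = 1.26e-05) and Ndufs7 (-0.26 ± 0.06, adjusted p = 4.99e-05). With the length and GC correction the nuclear split turned to 15 higher and 4 lower, so its direction in hippocampus depended on that choice.

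In amygdala 2 nuclear members were higher and 19 lower (33.3% and 33.2% of all genes; median -0.12), and all 7 mitochondrial members were higher (median 0.48). mt-Nd4l, whose sequence is printed above, had 45.6 ± 9.11 CPM in amygdala (n = 15) and 11.3 ± 4.11 CPM elsewhere (n = 62), a log2 difference of 2.14 ± 0.08 (adjusted p = 2.73e-36). Its neighbours in the low run, outside complex I, were also higher in amygdala: mt-Atp8 by 2.14, mt-Co3 by 1.83, mt-Atp6 by 1.67 and mt-Co2 by 1.38. Since 98.5% of the mt-Nd4l windows also occurred in a nuclear transcript, its level is uncertain, and the part of the shared sequence was not tested. mt-Nd3 had 67.4 ± 14.9 CPM against 39.2 ± 11.5 CPM (0.88 ± 0.08, adjusted p = 6.97e-16), and mt-Nd5 followed at 0.61 ± 0.07 (adjusted p = 9.06e-13). Per kilobase, mt-Nd4l had 153.5 CPM in amygdala and 24.6 to 52.4 CPM in the other regions, while mt-Nd4, its overlapping neighbour, had 2876 CPM in amygdala and 1794 to 2674 CPM in the others. The core subunits Ndufs1 (-0.29 ± 0.03, adjusted p = 2.60e-13) and Ndufs7 (-0.27 ± 0.06, adjusted p = 2.40e-05) were among the lowest.

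**Figure D5:**
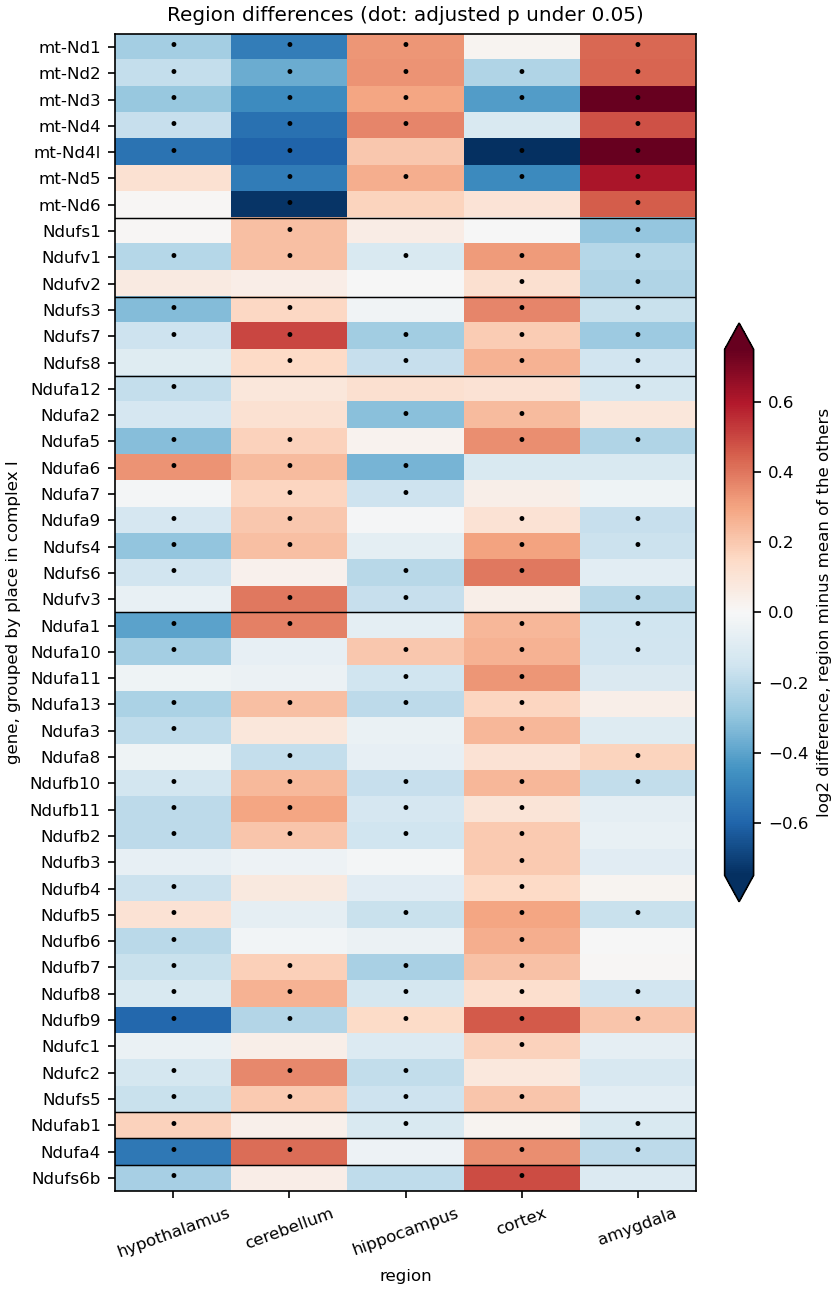
Log2 difference of the complex I genes shown, in each region minus the mean of the other regions, as colour (scale in log2 units, clipped at its ends), with a dot at an adjusted p under 0.05, in the order of places in the complex. The mitochondrial rows are blue in cerebellum (7 lower) and red in amygdala (7 higher), and the nuclear rows are mostly red in cerebellum and neocortex and mostly blue in hypothalamus, hippocampus and amygdala.

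The nuclear genes of complexes II to V and the other mitochondrial genes, which include the ribosomal RNA genes mt-Rnr1 and mt-Rnr2, gave like counts by region. Of all genes tested, 42.3% were called higher and 40.2% lower in cerebellum, 37.7% and 36.2% in neocortex, and 38.5% and 39.1% in hypothalamus. The shares were 32.4% and 34.1% in hippocampus and 33.3% and 33.2% in amygdala. Nuclear subunits of complexes II to V had 28 of 36 higher and 3 lower in cerebellum, 30 and 2 in neocortex, 2 and 27 in hypothalamus, 2 and 15 in hippocampus and 4 and 19 in amygdala. The 8 other mitochondrial genes were all higher in amygdala and all lower in cerebellum, with 0 higher and 7 lower in hypothalamus, 6 and 0 in hippocampus and 1 and 6 in neocortex. Ribosomal protein genes ran the same way as the nuclear members in neocortex and hippocampus and otherwise in the other regions, with 2 of 77 higher and 66 lower in cerebellum, 48 and 1 in neocortex, 32 and 11 in hypothalamus, 5 and 33 in hippocampus and 51 and 2 in amygdala.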

How the data were processed

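Single-end reads of 100 bases came from poly(A)-selected RNA of 5 brain regions of 16 mice. Per the labels, the authors aligned them with HISAT2 to mm10 and counted uniquely mapping reads per gene with featureCounts and its inbuilt annotation (versions not given in the sources used here), and the deposited counts were used as they stand. The authors also deposited log2 values labelled as log2(CPM + 4), which were instead log2 of the count divided by a size factor, plus 4 (largest difference 5e-05), and these entered an alternative fit only. The deposited tables held no column for 3 of the 80 samples, 1 virgin each from hippocampus, cerebellum and amygdala, which were not analysed here.

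CPM was computed from the total count per library. A gene was kept if 8 or more libraries had 5 CPM or more, which left 13016 of 27179. Virgin and primiparous groups were compared within each region by edgeR's quasi-likelihood F-test (edgeR 4.0.16, R 4.3.3) with TMM normalization and Benjamini-Hochberg adjustment over all genes kept, and an adjusted p under 0.05 was called. Each parity fit held only the 2 groups compared, each interaction fit 4 groups and the region fit all 10 groups. The fits were also run on simulated data, with fold changes larger than those of the nuclear members called within hypothalamus or cerebellum. These data held no length trend and no number series, so that run does not bear on calls of such size. Alternatives were limma-voom (limma 3.58.1), DESeq2 1.42.0, RLE normalization, other filters, a length and GC correction (splines with 4 degrees of freedom), the animal number series as a covariate, 1 fit of 10 groups, limma-trend on the deposited log2 values, each library left out, and the animal as a block in comparisons between regions. The number series as a covariate and the fits without each library in turn were run only for the parity comparisons within a region. Figures and summaries were made in Python 3.11.15 with pandas 2.3.3 and matplotlib 3.10.9. Lengths, GC content and positions came from GENCODE M21 (GRCm38) and were found for 12864 of the genes kept (98.8%), and promoters from RefSeq (GRCm38.p6). No genome sequence was used, so shared read-length windows were sought among annotated transcripts only.

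The complex I genes, the comparison lists and the marker lists were chosen with earlier results of these data known, and the list of other mitochondrial genes after their values were seen. Named genes were the nuclear core subunits and all mitochondrial members, in each parity comparison with calls up to 8 members with the smallest p in each direction (otherwise the 2 smallest), in each region the 3 largest and 3 smallest differences among calls, the 3 highest and 3 lowest levels per length, the members that failed the filter, Ndufa4, Ndufa4l2, Ndufab1 and the copies, and the gene with the smallest p of each comparison list. Further genes named in the text were chosen after their values were seen. Some items that this rule or these lists take in are not reported here, though counts, sums and medians over the members include them.

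Samples of different regions shared animals by the animal numbers in the labels, so the pairing comes from the same mice. Deviations from the group means correlated between regions of the same animal with a median of -0.0132 to 0.104, by region pair, and between regions of unlike animals with a median of -0.0107 to 0.00673. Each replicate was a separate mouse.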

Additional observations from a re-analysis of the deposited data

Results flagged for a closer look

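Members were searched, group by group, for a highest or lowest library that lay far from the others for its group's range, a search in which chance marks about 1 in 20 groups. Of 45 members, 36 had such a library in primiparous neocortex, in each case the highest and in each case animal 427, whose summed nuclear level was 5429 CPM. In virgin hypothalamus there were 10 such members, all by animal 409, whose summed mitochondrial level was the lowest of its group at 17089.9 CPM. The other groups had 5 members (virgin neocortex), 4 (virgin amygdala), 4 (primiparous amygdala), 2 (primiparous hypothalamus), 2 (primiparous cerebellum), 1 (virgin hippocampus) and 1 (primiparous hippocampus).

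The parity effect differed between cerebellum and another region, by the interaction test, for 7 mitochondrial and 8 nuclear members against hypothalamus, for 3 nuclear members against amygdala and for 1 nuclear member against hippocampus. No member differed against neocortex. Of all genes tested, 9.54% had a higher and 5.94% a lower effect in cerebellum than in hypothalamus. The shares were 0.361% and 0.0538% against amygdala, and 0.131% and 0.0384% against hippocampus.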

How the results depend on the processing

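Over all alternatives, 656 counts of members called stayed within 1.5 times the reported count and 76 did not, and 352 values of single members kept their direction and side of the threshold, 119 missed it and 1 reversed (Ndufv2 in hypothalamus, log2 fold change 0.040 with the length and GC correction). The cause of these shifts was not tested. In hypothalamus the 9 nuclear members higher became 4 in 1 fit of 10 groups, 5 with limma-voom, 5 without a filter, 1 with the length and GC correction and 0 with the number series as covariate. The 2 lower became 1 with the correction and 0 in the fit of 10 groups and with the covariate, and the 6 mitochondrial members lower became 1 with the correction and 1 with the covariate. In cerebellum the 2 nuclear members higher became 1 in the fit of 10 groups, 7 with DESeq2, 4 with the correction and 0 with the covariate, and the 1 mitochondrial member became 5, 7, 7 and 0 in the same order, 5 with limma-voom and 3 with limma-trend.

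With 1 library left out, hypothalamus gave 3 to 15 nuclear members higher (15 without primiparous 418, 3 to 5 without primiparous 413, 415 or 421 or virgin 4487, 4488, 4489, 4490 or 4491), 0 to 3 lower (0 without virgin 4486) and 5 to 7 mitochondrial members lower. Cerebellum gave 0 to 14 nuclear (14 without primiparous 4493, 4 without 418, 1 without 413 or 414, 0 without primiparous 415 or virgin 409, 4486 or 4487) and 0 to 7 mitochondrial members higher (7 without primiparous 418 or 4493, 6 without virgin 4488, 4 without virgin 405, 0 without primiparous 413 or 415 or virgin 409, 4486 or 4487). Without neocortex 427 or hippocampus 413, chosen after seeing the data, neocortex had 24 to 30 nuclear members higher and 0 to 1 lower.

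With the animal as a replicate block, the nuclear members differing between cerebellum and amygdala went from 3 to 1, as they did with limma-voom, with the length and GC correction and with the block and the correction together. Those against hippocampus went from 1 to 2 with the block and with RLE normalization, and to 0 with the correction, alone or with the block. Block and correction together gave 2 mitochondrial members against hippocampus and 2 nuclear members against neocortex, each from 0, and no other count moved by over 1.5 times with the block alone. Between regions the correction, alone and with the block, gave 5 and 5 nuclear members lower in cerebellum (from 2), 17 and 18 higher and 7 and 7 lower in neocortex (from 30 and 0), 1 and 1 mitochondrial member higher in neocortex (from 0), and 15 and 17 higher and 4 and 5 lower in hippocampus (from 2 and 20), where 4 were higher without a filter.

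Without Ndufa4, Ndufa4l2 and Ndufab1 the mean summed nuclear levels were 2617 and 2789 CPM in virgin and primiparous hypothalamus and 3103 and 3378 in cerebellum. They were 2577 and 2512 in hippocampus, and 2550.4 and 2436 in amygdala. On TMM-scaled library sizes the full nuclear sum in virgin hippocampus was 2930.03 CPM. The order of regions within each state also changed on these sizes, for both sums, as given with the regional levels. Counts of mt-Nd3 (62806 reads over all libraries) and mt-Nd4l (24061) were the lowest of the mitochondrial members, and the effect on their precision was not tested.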
